A study of Mus musculus with 6 samples.

Results

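Keratins are the intermediate filament proteins of epithelial cells. The 9 genes described here encode the keratins of simple epithelia, Krt7, Krt8, Krt18, Krt19 and Krt20, and those of the basal layer and appendages of stratified epithelia, Krt5, Krt14, Krt15 and Krt17. They were chosen as a family by name, with earlier results of these data known. Their measurements are those of every probe set annotated to exactly 1 of them, which came to 14 of the 45037 probe sets on the array. A further probe set annotated to both Krt17 and Krt14 was left out. Their transcripts were measured in sensory epithelia of untreated wild type C3H mice, taken on postnatal day 2, with 3 arrays of vestibule and 3 of cochlea. The vestibular pools joined the utricle, the saccule and 2 of the cristae, the anterior and the lateral. Neither tissue was stripped of mesenchyme or of neurons, and each pool joined several inner ears, so every array holds RNA of many cell types. Values are log2 expression levels on Affymetrix short-oligonucleotide arrays, and differences are vestibule minus cochlea.

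A keratin filament is built from pairs of 1 acidic (type I) and 1 basic (type II) chain, so that a cell needs a partner of each type. Krt8 with Krt18 is the founding pair of simple epithelia, joined by Krt7 (type II) and by Krt19 and Krt20 (type I). Krt5 (type II) pairs with Krt14 or Krt15 (type I) in basal cells, and Krt17 is a type I keratin of skin appendages and wounded skin. Filaments are anchored at desmosomes and hemidesmosomes. In the inner ear, keratins are known from supporting cells and from the non-sensory cells that line the endolymph.

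The array median was 5.6 to 5.7 on all 6 arrays. Arrays correlated at 0.993 within the vestibule and at 0.981 to 0.988 within the cochlea, against 0.946 to 0.962 across tissues. The signal of Gapdh probes at the 3′ end exceeded that at the 5′ end by 2.3 to 2.4 (log2) on the vestibular arrays and by 2.1 to 2.8 on the cochlear arrays, a measure of RNA integrity that overlapped between the tissues. The 30024 probe sets with the highest means, from 4.65 upwards, were tested with limma. A probe set was called where its fold reached 1.3 and its p, adjusted after Benjamini-Hochberg, was under 0.1. A gene is read by its brightest probe set. The labels number the arrays but do not tie them to pools, so the p-values rest on the spread among arrays, part of which may be technical.

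Of the 9 keratin genes 6 passed the filter. Krt7, Krt18, Krt8 and Krt5 were higher in the vestibule and Krt15 and Krt19 lower. The 2 lower calls are the less firm. The vestibular mean of Krt15 lay under the filter, and Krt19 lost its call in most sets with 1 array left out. Among all 14298 genes tested, 23% were called, 15.1% as higher in the vestibule and 7.95% as lower, and in 32.2% the arrays of the tissues did not overlap. The 6 genes were read by 8 tested probe sets, of which 6 were higher and 2 lower, and the tissues overlapped in none. Over all tested probe sets 11.9% were higher, 7.33% lower, 19.3% called in either direction and 27.3% without overlap. Krt14, Krt17 and Krt20 read below the filter in both tissues. In a tissue mixture, more cells of a type and more RNA per cell cannot be told apart.

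The 3 simple-epithelium keratins that were higher in the vestibule lie on chromosome 15, and their promoters are printed here because they moved in the same direction. They are RefSeq sequences of the build GRCm38.p6, from 250 bases before to 50 bases after a transcript start site. Such an entry was held for 6 of the 9 members. That of Krt14, not printed, is centred on a site that is not at the edge of the gene. Capitals mark a TATA box (TATAAA) or a GC box (GGGCGG) on either strand.
Krt7, chr15:101412153-101412452, plus strand: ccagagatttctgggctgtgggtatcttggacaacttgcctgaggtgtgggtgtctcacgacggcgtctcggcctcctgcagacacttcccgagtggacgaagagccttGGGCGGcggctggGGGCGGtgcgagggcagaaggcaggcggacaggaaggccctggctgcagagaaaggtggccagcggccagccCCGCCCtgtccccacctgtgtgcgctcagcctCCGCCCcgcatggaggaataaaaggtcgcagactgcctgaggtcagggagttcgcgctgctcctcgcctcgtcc
Krt18, chr15:102027966-102028265, plus strand: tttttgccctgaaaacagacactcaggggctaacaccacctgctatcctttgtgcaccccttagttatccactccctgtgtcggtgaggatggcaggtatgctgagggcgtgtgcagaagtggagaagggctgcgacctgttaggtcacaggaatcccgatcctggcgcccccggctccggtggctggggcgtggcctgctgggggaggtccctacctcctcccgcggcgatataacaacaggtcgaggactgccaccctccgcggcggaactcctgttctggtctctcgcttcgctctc
Krt8, chr15:102004293-102004592, minus strand: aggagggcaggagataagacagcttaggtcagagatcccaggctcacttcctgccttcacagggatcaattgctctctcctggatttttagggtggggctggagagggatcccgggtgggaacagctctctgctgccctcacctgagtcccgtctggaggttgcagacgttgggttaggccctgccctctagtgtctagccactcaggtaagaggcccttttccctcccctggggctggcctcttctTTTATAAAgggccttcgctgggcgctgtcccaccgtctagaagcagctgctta
The Krt7 promoter held 4 GC boxes, 2 on each strand, and no TATA box by these letters. The Krt8 promoter held TATAAA at the start site, where matches on the plus and minus strands overlap, and no GC box. The Krt18 promoter held neither. Of 27025 promoters of this length, 14.2% held TATAAA and 35.9% held GGGCGG. The AP-1 motif TGANTCA and the Grainyhead-like motif AACCGGTT, present in 7.93% and 0.152% of promoters, were found in none of the 6 member promoters. A match is a description of letters in this window only. Krt8 and Krt18 are neighbours, with no other protein-coding gene between them, and Krt18 is the type I keratin that lies at the end of the type II cluster.

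Krt7, a type II keratin of simple and ductal epithelia, had the widest difference of the members. Probe set 1423952_a_at read 8.8, 8.9 and 9.0 on the vestibular arrays and 6.8, 6.7 and 7.1 on the cochlear arrays. The lowest vestibular array lay well above the highest cochlear one. The means were 8.90 ± 0.10 in the vestibule and 6.87 ± 0.21 in the cochlea (SD, n = 3 each), a log2 difference of 2.03 (standard error 0.14, 95% confidence limits 1.72 and 2.34, adjusted p = 2.3e-05 by limma), or 4.09-fold.

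Krt18, the type I partner of Krt8, was also higher in the vestibule. Probe set 1448169_at read 10.2, 10.3 and 10.3 in the vestibule and 8.7, 8.9 and 9.0 in the cochlea. The 3 vestibular arrays differed by no more than the last digit deposited, and the tissues did not overlap. The log2 difference was 1.40 (standard error 0.12, 95% confidence limits 1.13 and 1.67, adjusted p = 8.8e-05 by limma), or 2.64-fold.

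Krt8, the type II partner, was read by 3 probe sets, and each was called higher in the vestibule. The brightest, 1420647_a_at, read 11.4, 11.5 and 11.5 in the vestibule and 10.7, 10.9 and 10.8 in the cochlea, a log2 difference of 0.67 (95% confidence limits 0.41 and 0.92, adjusted p = 0.0035 by limma) or 1.59-fold. The other two carry the suffix _x_at, which marks probes that may bind further transcripts. Probe set 1423691_x_at gave 11.2, 11.3 and 11.3 in the vestibule and 10.4, 10.8 and 10.5 in the cochlea, a difference of 0.70. Probe set 1435989_x_at gave 11.1, 11.2 and 11.2 in the vestibule and 10.4, 10.8 and 10.5 in the cochlea, a difference of 0.60. The highest cochlear array of both was replicate 2, and it still read below every vestibular array.

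Krt19, the type I keratin that lacks a tail domain and also pairs with Krt8, ran the other way. Probe set 1417156_at read 8.8, 9.2 and 9.0 in the vestibule and 9.3, 9.9 and 9.5 in the cochlea. The tissues lay 0.1 apart at their nearest arrays, vestibule replicate 2 and cochlea replicate 1. The means were 9.0 ± 0.20 in the vestibule and 9.57 ± 0.31 in the cochlea (SD, n = 3 each), a log2 difference of -0.57 (95% confidence limits -0.97 and -0.17, adjusted p = 0.062 by limma). The call was lost without vestibule replicate 1 (adjusted p = 0.257), 2 (0.104) or 3 (0.201), or without cochlea replicate 2 (0.134) or 3 (0.16), with log2 differences of -0.70 to -0.40 over the 6 sets of arrays with 1 left out.

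Krt5, the type II keratin of basal cells, was higher in the vestibule. Probe set 1424096_at read 6.5 on each of the 3 vestibular arrays and 5.9, 5.8 and 5.8 in the cochlea. The tissues did not overlap, and the log2 difference was 0.67 (95% confidence limits 0.43 and 0.90, adjusted p = 0.0024 by limma) or 1.59-fold. Krt15, a type I keratin of basal cells, was lower in the vestibule. Probe set 1422667_at read 4.4, 4.5 and 4.6 in the vestibule and 4.9, 5.4 and 5.4 in the cochlea, a log2 difference of -0.73 (95% confidence limits -1.09 and -0.38, adjusted p = 0.013 by limma). Its vestibular mean of 4.5 lay under the 4.65 of the filter, so that it was tested on the strength of the cochlear arrays, and its difference may be understated.

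**Figure D1:**
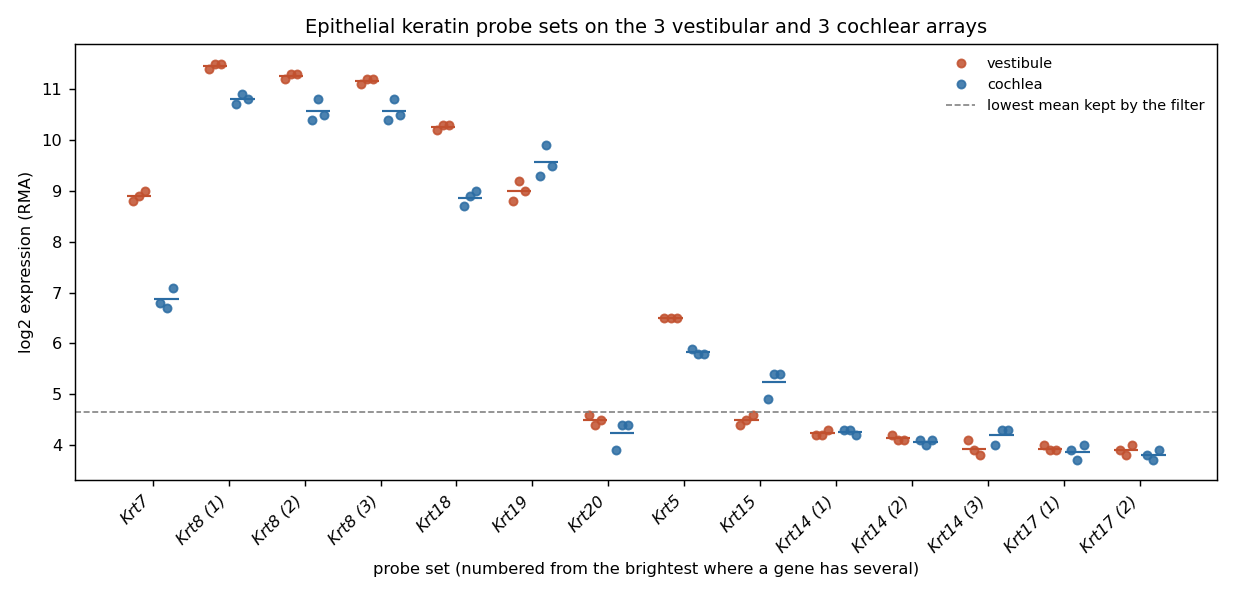
Log2 expression level of the 14 keratin probe sets, 1 point for each of the 3 vestibular and 3 cochlear arrays, with bars at the means and a dashed line at 4.65, the lowest mean that was tested. Heights of different probe sets are not comparable, and within a probe set the vestibular points lie above the cochlear ones for Krt7, Krt8, Krt18 and Krt5 and below them for Krt19 and Krt15.

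The 3 genes that were not tested gave 6 probe sets, in all of which the arrays of the tissues overlapped. Krt14, the type I partner of Krt5, read 3.8 to 4.3 in the vestibule and 4.0 to 4.3 in the cochlea over its 3 probe sets. Krt17 read 3.8 to 4.0 in the vestibule and 3.7 to 4.0 in the cochlea over its 2 probe sets. The probe set shared by Krt17 and Krt14 read 4.2, 4.1 and 4.4 in the vestibule and 4.1, 3.9 and 4.4 in the cochlea. Krt20, known from intestinal and bladder epithelium and from Merkel cells, read 4.6, 4.4 and 4.5 in the vestibule and 3.9, 4.4 and 4.4 in the cochlea. With no filter these genes had log2 differences of -0.03 for Krt14, 0.07 for Krt17 and 0.27 for Krt20, and none was called (limma adjusted p = 0.890, 0.774 and 0.356).

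**Figure D2:**
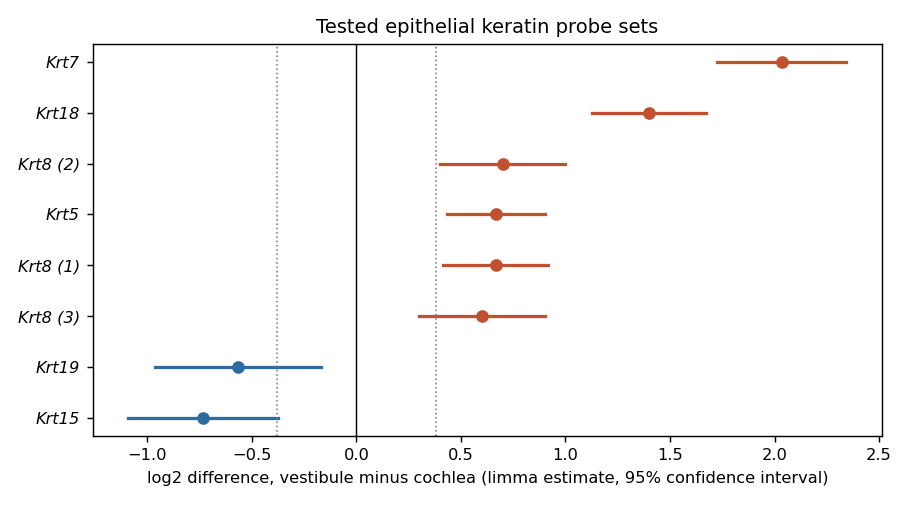
Log2 difference, vestibule minus cochlea, of the 8 keratin probe sets that were tested, with 95% confidence intervals from limma and dotted lines at a fold of 1.3 in either direction. Krt7 at 2.03 and Krt18 at 1.40 lie farthest to the right, the probe sets of Krt8 and Krt5 lie between 0.60 and 0.70, and Krt19 and Krt15 lie left of 0.

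The partner chains differed in how far they lay apart between the tissues within an array. The level of one gene was subtracted from that of another on each array, and the cochlear mean of this ratio was set to 0. The ratio of Krt18 to Krt8 was 0.73 on each of the 3 vestibular arrays and -0.07, -0.07 and 0.13 on the cochlear arrays. The ratio of Krt7 to Krt8, both type II, was 1.33, 1.33 and 1.43 in the vestibule and 0.03, -0.27 and 0.23 in the cochlea. Among the 9 pairs computed, the balance between the type I partners of Krt8 moved the most. The ratio of Krt18 to Krt19 was 2.1, 1.8 and 2.0 in the vestibule and 0.1, -0.3 and 0.2 in the cochlea. Krt19 itself lost its call in most sets with 1 array left out. The ratio of Krt5 to Krt15 averaged 1.40 and that of Krt7 to Krt5 1.37 in the vestibule, against 0 in the cochlea. Since the vestibular mean of Krt15 lay under the filter, the ratio of Krt5 to Krt15 in the vestibule is not a measured balance of the pair. Set against the epithelial adhesion gene Epcam, Krt7 averaged 1.43 and Krt18 0.80 in the vestibule, and these ratios did not overlap between the tissues either. For Krt18 the nearest arrays lay 0.1 apart, at 0.5 in the vestibule and 0.4 in the cochlea. All ratios to Epcam use its brightest probe set, with a difference of 0.60, against 0.27 by the mean of its probe sets. The ratio of Krt8 to Epcam was -0.23, 0.27 and 0.17 in the vestibule and -0.13, -0.13 and 0.27 in the cochlea (exact two-sided permutation p = 1), and that of Krt5 to Epcam averaged 0.07 in the vestibule (exact permutation p = 0.8). Over the 9 pairs computed, which were chosen after the values were seen, each of the 7 without overlap had an exact two-sided permutation p = 0.1, the smallest that 3 arrays against 3 allow, or 0.129 after adjustment over the 9 pairs. With so few arrays this test could not pass. These ratios show unequal change and not the amount of either protein chain.

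**Figure D3:**
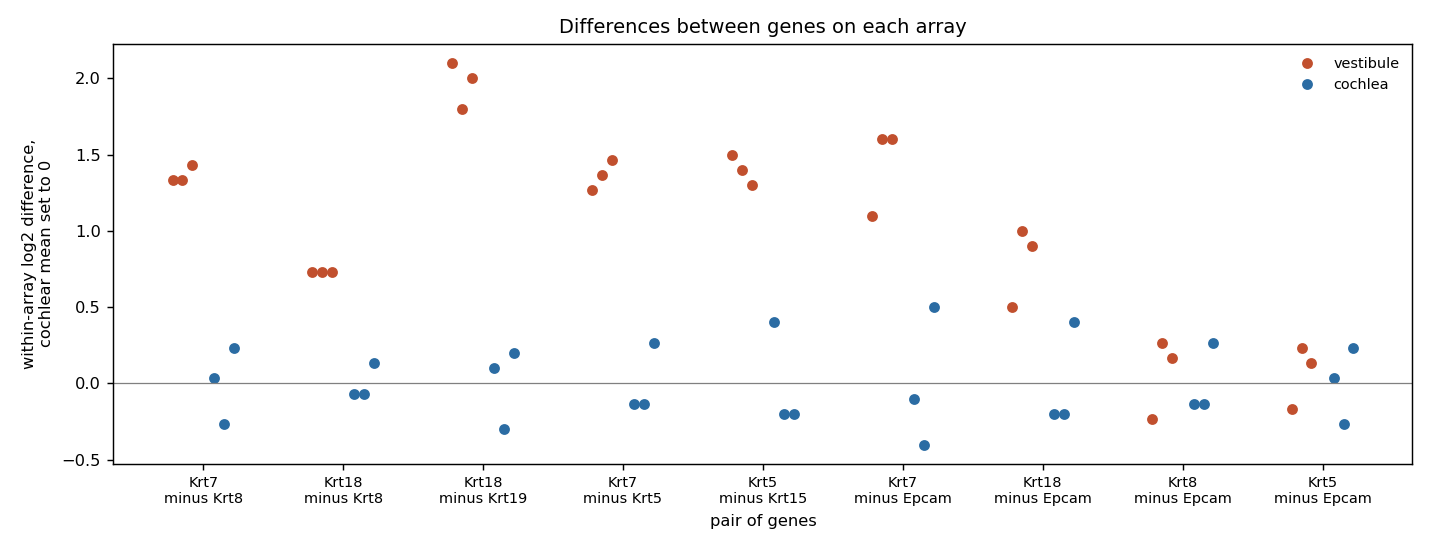
Within-array log2 ratio for 9 pairs of genes, 5 of keratins and 4 of a keratin with Epcam, 1 point for each of the 3 vestibular and 3 cochlear arrays, with the cochlear mean of each pair set to 0. The vestibular points lie above the cochlear points in 7 pairs, most for Krt18 minus Krt19 at 1.8 to 2.1, and overlap them for Krt8 and Krt5 minus Epcam.

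Keratin genes lie in 2 clusters, the type I genes on chromosome 11 and the type II genes, with Krt18, on chromosome 15. Of the 17 tested keratin genes on chromosome 15, 5 were higher in the vestibule and 0 lower by limma. These were Krt7, Krt18, Krt8, Krt5 and Krt80, of which all but Krt80 are members, so the count mostly repeats their calls. Over all tested genes 15.1% were higher and 7.95% lower. At an unadjusted p under 0.05, Krt71 was lower as well, at -0.30. Of the 9 on chromosome 11, 1 was higher and 2 lower, Krt23 against Krt15 and Krt19. Krt23, a type I keratin that follows Krt20 in gene order, read 7.7 on each of the 3 vestibular arrays and 5.7, 5.6 and 5.3 in the cochlea, a log2 difference of 2.17 (limma adjusted p = 1.2e-05). Krt80, a type II keratin next to Krt7, read 6.6, 6.7 and 6.6 in the vestibule and 6.1, 5.8 and 6.5 in the cochlea, a difference of 0.50 (limma adjusted p = 0.091). The highest cochlear array of Krt80 lay 0.1 under the lowest vestibular one, and its call was lost without vestibule replicate 1 (adjusted p = 0.240), 2 (0.264) or 3 (0.229) or cochlea replicate 1 (0.227) or 2 (0.173), with no filter (0.119) and with a variance trend in limma (0.1002). Over a partial list of 25 further keratins 13 were tested, with 2 higher, 0 lower and a median difference of -0.10, against 0.03 over all genes. This made 15.4% called, beside 23% over all genes. Krt32, Krt33b, Krt42, Krt81, Krt83, Krt84 and Krt88, outside this list, were tested and did not pass. The share called over all tested keratins outside the members is therefore lower than 15.4%. Among those that did not pass were Krt1 at -0.23 and Krt10 at -0.10, the pair of the upper skin layers, and Krt4 at -0.13.

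**Figure D4:**
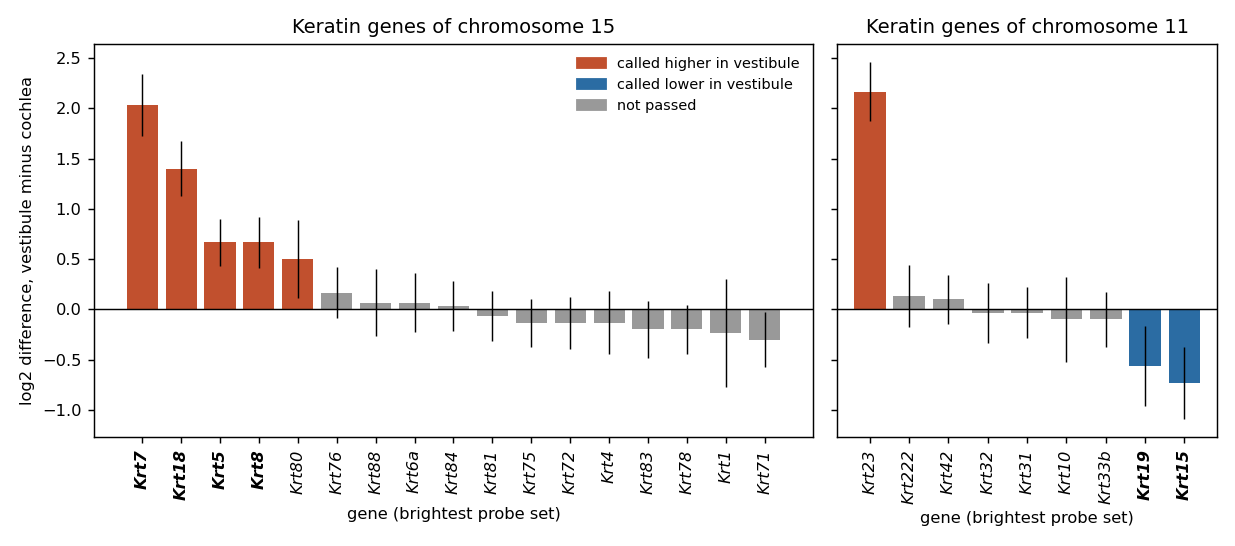
Log2 difference, vestibule minus cochlea, of the 26 tested keratin genes of chromosomes 15 and 11 (brightest probe set; bars with 95% confidence intervals from limma; members in bold). Differences above 0.5 are those of Krt7, Krt18, Krt5 and Krt8 on chromosome 15 and of Krt23 on chromosome 11, and Krt15 and Krt19 stand lowest.

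Of the genes that anchor keratin filaments, 7 of 20 tested were higher in the vestibule and 1 lower, with a median difference of 0.17 against 0.03 over all genes. This made 40% called, beside 23% over all genes. Eppk1, which encodes the keratin-binding linker epiplakin, read 8.0, 7.8 and 8.0 in the vestibule and 5.1, 5.1 and 5.5 in the cochlea, a difference of 2.70 (limma adjusted p = 6.5e-06). The desmosomal cadherin gene Dsc2 stood at 1.37 and the plakophilin gene Pkp1 and Perp, a membrane protein gene of desmosomes, at 1.3 each. Desmoplakin, which ties keratins to the desmosome, had a Dsp difference of 1.27, and Pkp4 was the gene called lower, at -1.10. Dsp and Pkp4 were named after their values were seen. With probe sets averaged, Dsc2 had a difference of 0.87, and without the probe sets of suffix _x_at and _s_at Dsp had 0.80, both still called. The integrin gene Itgb4 at 0.63 and the linker gene Plec at 0.47 were the remaining genes called higher (limma adjusted p = 0.0051 and 0.042). At an unadjusted p under 0.05 by limma, Dst at -0.37 and Pkp3 at -0.27 were lower as well, and Dsg2 at 0.57 was higher. The plakoglobin gene Jup at 0.13, the integrin gene Itga6 at -0.07 and Trp63, the regulator of stratified epithelium, at -0.07 did not pass.

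Of 24 tested markers of simple epithelium 5 were higher in the vestibule and 1 lower, with a median difference of 0.03, the same as over all genes. This made 25% called, beside 23% over all genes. The claudin genes Cldn4 and Cldn3 stood at 1.17 and 0.77, the galectin gene Lgals3 at 0.83 and the adhesion gene Epcam at 0.60. St14, the remaining higher one, also stood at 0.60 (limma adjusted p = 0.012). The call of Cldn3 was lost without vestibule replicate 1 or 2 or cochlea replicate 1, with an adjusted p up to 0.110, and that of Lgals3 without any vestibular array or cochlea replicate 1 or 3 (up to 0.294), with no filter (0.121) and with arrays centred on their medians (0.114). The call of Epcam was lost without vestibule replicate 1 or 3 or cochlea replicate 1 or 3 (up to 0.173) and by the mean of its probe sets, at 0.27. The epithelial cadherin gene Cdh1, named after its value was seen, was the lower one at -0.40 (limma adjusted p = 0.034), a call lost without vestibule replicate 3 (0.115). At an unadjusted p under 0.05 by limma, Ovol2 at -0.40, Marveld2 at -0.30 and Ap1m2 at -0.27 were lower as well. Marveld3, at 0.43, was higher at that threshold. The skin list had 1 of 7 tested genes higher (14.3%), Dmkn at 2.23. Its cochlear mean of 3.83 lay under the filter, so that it was tested on the strength of the vestibular arrays and its difference may be understated. The cornified envelope genes Lor at -0.27 and Ivl at 0.23 did not pass. Also tested and not passed were Casp14, Tgm3, Sprr3 and Sbsn, the last with means of 9.20 in the vestibule and 9.17 in the cochlea. Of the skin list 8 genes read below the filter, among them Flg, Sprr1a, Krtdap, Tgm1 and Sfn.

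**Figure D5:**
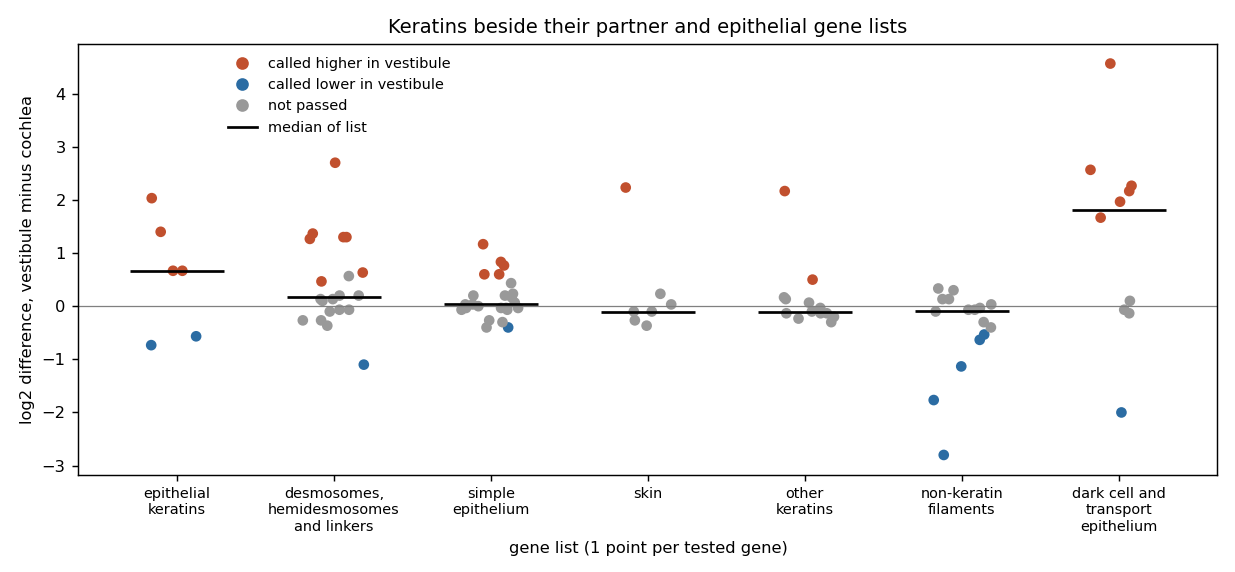
Log2 difference, vestibule minus cochlea, of the tested keratins beside 6 gene lists, 1 point per gene (brightest probe set), with bars at the medians and colours for the limma call. The tested keratins have a median of 0.67, the linker list 0.17, the simple-epithelium list 0.03 and the transport epithelium list 1.82.

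Other intermediate filaments gave 0 genes higher and 5 lower of 16 tested by limma, with a median of -0.08. This made 31.25% called, beside 23% over all genes, of which 7.95% were lower and 15.1% higher. At an unadjusted p under 0.05 the neurofilament gene Nefm, at 0.33, and the lamin gene Lmna, at 0.30, were higher. The neuronal filament genes Nefh at -2.80, Ina at -1.77, Prph at -1.13 and Nefl at -0.53 were among the lower ones, with the muscle filament gene Des at -0.63. The vestibular means of Nefh, 4.43, and Ina, 4.57, lay under the 4.65 of the filter, so that both were tested on the strength of the cochlear arrays and their differences may be understated. Prph lost its call without vestibule replicate 1 (adjusted p = 0.166) or 2 (0.126) or cochlea replicate 2 (0.121) or 3 (0.143). Its difference was -0.41 when its probe sets were averaged. Vim, the filament gene of mesenchyme and of many ear supporting cells, read 12.0, 12.3 and 12.2 in the vestibule and 12.2, 12.6 and 11.9 in the cochlea, and did not pass. Neuron markers were lower for 10 of 11 tested, beside 7.95% lower over all genes. Their mean levels were 7.18 to 7.39 in the vestibule and 8.44 to 8.79 in the cochlea. Nefl and Nefm stand in both lists, so the neuron count and means partly repeat the filament values.

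Markers of other cell types moved between the same arrays, and their part in the keratin differences was not tested. The counts below stand beside 23% called over all tested genes, 15.1% as higher in the vestibule and 7.95% as lower. Markers of dark cells and transporting non-sensory epithelium were higher for 6 of 10 and lower for 1, with mean log2 levels of 9.28 to 9.61 in the vestibule and 8.02 to 8.24 in the cochlea. Hair cell markers were higher for 8 of 14 and lower for 1 (8.27 to 8.44 in the vestibule, 7.58 to 7.67 in the cochlea). Supporting cell markers were higher for 4 and lower for 4 of 15 (9.22 to 9.29 in the vestibule, 9.46 to 9.74 in the cochlea). Macrophage markers were higher for 13 of 14, endothelial for 7 of 11, melanocyte for 6 of 8, mesenchyme for 6 of 13 and Schwann cell markers for 2 of 7, with 1 lower in each list but that of macrophages, which had 0 lower by limma (0 also at an unadjusted p under 0.05).

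The genes with the pattern closest to a keratin were sought by the root mean square difference of log2 values over the 6 arrays, each gene centred on its mean. Nearest to Krt7 were the claudin gene Cldn22 at a distance of 0.094, the small membrane protein gene Smim5 at 0.12 and Rdh10, a retinol dehydrogenase, at 0.13. Nearest to Krt18 were Ccdc30 at 0.037 and Iqcg and Ncald at 0.058 each. By the mean of their probe sets in place of the brightest, the difference of Ccdc30 was 0.48 against 1.37 and that of Ncald 0.56 against 1.40, and distances were computed for the brightest probe sets only. The cochlear mean of Iqcg lay just under the filter. Nearest to Krt15 were Dhrs2 at 0.037, Cdc42ep5 at 0.058 and Hecw1 at 0.075, with Cdc42ep5 at a difference of -0.43 when its probe sets were averaged, against -0.80. Distances near 0.05 are about the size of the rounding of the deposited values.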

How the data were processed

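The deposited table holds log2 expression values that the authors computed by RMA with quantile normalization, rounded to 1 decimal, after two-cycle amplification and hybridisation to Affymetrix mouse genome arrays. No source used here gives the version of RMA. The values ran from 2.8 to 15 and were used as deposited. Present calls need probe-level values, so the 64 control probe sets were dropped and the 30000 others with the highest mean log2 value were kept, with ties. The annotation named 1 gene for 34945 probe sets, several for 932 and none for 9160, and probe sets with several were not named.

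All tested probe sets were fitted together by lmFit and eBayes of limma 3.58.1, two-sided, in R 4.3.3 with data.table (version 1.17.8). Adjustment of p-values (Benjamini-Hochberg) ran over all of them. The script was tested on simulated data. Figures and promoter searches used numpy 2.4.6, pandas 2.3.3 and matplotlib 3.10.9 in Python 3.11.15. The number of arrays, 3 per tissue, and the rounding of the values limit the precision. Genes named are all members, the called keratins outside them, up to 4 called genes of each list on filaments, junctions and epithelia with the largest differences, and the 3 nearest genes of 3 members. All other genes named were chosen after their values were seen. The members and the 14 lists, from textbook knowledge, were chosen with earlier results of these data known. Alternatives changed the filter, normalization, variance model, block, arrays, thresholds and the value of a gene.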

Additional observations from a re-analysis of the deposited data

How the results depend on the processing

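Krt7, Krt18, Krt8 and Krt5 kept their direction and their call under all 17 alternatives, over log2 ranges of 1.95 to 2.15, 1.31 to 1.48, 0.58 to 0.72 and 0.63 to 0.70. Krt15 kept its call under the 16 that tested it, at -0.90 to -0.58. Krt19 kept its direction under 17 and lost its call under 6. Member genes called as lower in the vestibule therefore numbered 1 with the stricter filter of 20000 probe sets, which left Krt15 out, and 1 at an adjusted p under 0.05, against 2, and 1 to 2 with 1 array left out. All member genes called numbered 5 to 6 and probe sets 7 to 8 with 1 array left out. Those called as higher stayed at 4.

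The replicate numbers were not taken to pair the arrays, since no source ties them to a shared litter or day and the deviations of same-numbered arrays did not all correlate above 0.1. These correlations were 0.216, 0.152 and -0.00023, against -0.22 to 0.029 between unlike numbers, and 4 of 6 arrays matched best with their own number, a hint of pairing for part of the arrays. With the replicate block 6 member genes were called, as without it, and 4707 against 5784 probe sets over the whole table. Krt80 (limma adjusted p = 0.193) and Epcam (0.115) lost their calls with it. Values near the filter, those of Krt15 above all, carry the least signal over background.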
